A study of Homo sapiens with 24 samples.

Results

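The genes described here are the integrin subunits and the core proteins of focal adhesions, 39 genes in all, of 58676 gene identifiers in the deposited table. They were chosen by name, as all 18 integrin α subunits, all 8 integrin β subunits and 13 focal adhesion proteins. The choice was made with earlier results of these data known. Each of the 39 symbols matched a single identifier. RNA was sequenced from HSJD-DIPG-007, an established human diffuse midline glioma (DMG) cell line grown as spheroids, which carries H3F3A K27M, ACVR1 R206H and a PIK3CA allele labelled MIS in every library of both groups. Cultures received vehicle or LLY-283, an inhibitor of the arginine methyltransferase PRMT5, at the concentration the labels name GI(40), starting the day after seeding, and medium with a second dose of drug or vehicle was replaced after day 5. Each treatment had 12 libraries, of which days 0 and 5 had 3 each, day 7 had 2, and days 1, 2, 3 and 10 had 1 each. The study describes the libraries of a group as technical repeats of this 1 cell line, so the p-values below measure the spread between such libraries and need not cover that between independent cultures.

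Integrins are cell surface receptors made of an α and a β subunit, and the α subunit largely sets the ligand. Some α subunits bind collagens, others laminins, others proteins with an RGD motif such as fibronectin and vitronectin, and a further class is restricted to leukocytes. Talins and kindlins bind the β tail and switch the receptor on, vinculin, α-actinin and tensins tie it to actin filaments, and paxillin, p130Cas, zyxin and focal adhesion kinase (FAK) assemble on it as signalling scaffold and kinase. In gliomas these receptors mediate attachment to and movement along brain extracellular matrix, and α6 is used as a surface marker of glioma stem cells.

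The total estimated count per library lay between 13835205 and 23190369. Markers of glioma cells and oligodendrocyte precursors summed to 8840 to 10570 CPM across the 24 libraries, where CPM is the count per 1000000 counts of a library after TMM scaling. SOX10, 1 of these 12 markers, stayed under 1 CPM in every library. Fibroblast markers summed to 384 to 524 CPM, and 3 of these 18, TWIST1, TWIST2 and TBX15, stayed under 1 CPM in every library. Of 12 microglia and leukocyte markers 10 stayed under 1 CPM in every library and 4 of them, TYROBP, C1QA, C1QB and C1QC, were at 0 throughout. FN1 and COL1A1, which encode fibronectin and a type I collagen chain, were high in 3 libraries, at 60.4 and 53.9 CPM in vehicle day 5 repeat 3, 29.98 and 31.2 CPM in vehicle day 7 repeat 1, and 26.01 and 31.5 CPM in the LLY-283 library of day 2. In the other 2 vehicle libraries of day 5 FN1 lay at 2.42 and 2.69 CPM. The fibroblast marker COL3A1 lay at 9.38, 5.17 and 5.47 CPM in the 3 libraries with high FN1, and under 1 CPM in the others. THY1, a larger part of the fibroblast sum, lay at 143.8, 143.5 and 129.7 CPM in these 3, within the range of the others. The sum therefore does not show the rise of COL3A1. At day 7 the LLY-283 library labelled repeat 2 went against its label. On a scale set by the other genes that differed between treatments at day 5, on which the mean of vehicle at day 5 is 0% and that of LLY-283 is 100%, vehicle at day 7 gave -2.65% (repeat 1) and 47.4% (repeat 2) and LLY-283 gave 73% (repeat 1) and -7.78% (repeat 2). Vehicle repeat 2 lay about midway, and so did the vehicle library of day 10 (60.6%). The libraries of day 0 lay between 19.4% and 32.6% with vehicle and between 18% and 24.6% with LLY-283. The scale is therefore not a measure of treatment alone. The time course is given with and without both libraries labelled repeat 2. A shared fit of 22 libraries, used below as an alternative, includes both of them unless stated otherwise. For day 5 and for the difference of effects, its counts without them are given in the last section.

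Most integrin and focal adhesion genes were well detected in these cells. Levels of different genes were compared as CPM divided by the length in kb of the MANE Select transcript. By the median over 24 libraries, 26 of the 39 genes reached 1 CPM per kb. ZYX (zyxin) stood at 188 CPM per kb and ITGB1, the β subunit shared by the largest number of α partners, at 181 CPM per kb, and their ranges over the libraries overlapped (149.9 to 219 and 128 to 203). ACTN1 (α-actinin) followed at 70.96 CPM per kb, then TLN1 (talin) at 45.7 CPM per kb, ILK (integrin-linked kinase) at 45.03 CPM per kb and ITGB5 at 44.8 CPM per kb, and the ranges of these last 3 genes overlapped.

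Among α subunits the order by median was ITGAV (29.2 CPM per kb), ITGA6 (27.95 CPM per kb), ITGA7 (24.04 CPM per kb), ITGA5 (20.4 CPM per kb), ITGA3 (12.8 CPM per kb) and ITGA4 (11.4 CPM per kb), and the ranges of each gene and the next in this order overlapped. Collagen-binding subunits were low, with ITGA10 at 1.90 CPM per kb, ITGA1 at 1.07 CPM per kb, ITGA2 at 0.151 CPM per kb and ITGA11 at 0.126 CPM per kb. For the αV subunit the β partners other than ITGB1 ranked ITGB5 (44.8 CPM per kb), ITGB8 (7.47 CPM per kb) and ITGB3 (3.69 CPM per kb). Ranges did not overlap between ITGB5 and ITGB8 or between ITGB8 and ITGB3. ITGB6, the epithelial αV partner, had a count of 0 in all 24 libraries.

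In all, 11 of the 39 genes stayed under 2 CPM in every library, with at most 37 counts. They were the leukocyte subunits ITGAD, ITGAL, ITGAM, ITGAX, ITGB2 and ITGB7, the platelet subunit ITGA2B, and ITGA2, ITGA8, ITGB6 and PARVA (α-parvin). Of the leukocyte class only ITGAE, the partner of β7 in lymphocytes, was higher, between 10.3 and 15.2 CPM, and its exons share 427 nt with HASPIN on the opposite strand, so the origin of its reads is uncertain. ITGAD and ITGAX are close paralogues, and their counts of at most 7 and 16 could be shared between them. Variation over the libraries, as the ratio of the highest to the lowest CPM, was 3.95 for ITGA10, 3.81 for ITGA9, 3.16 for ITGA7, 2.63 for ITGA3 and 2.43 for ITGA6, against 1.17 for ACTN1, 1.22 for TLN1 and 1.22 for PTK2 (FAK).

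**Figure D1:**
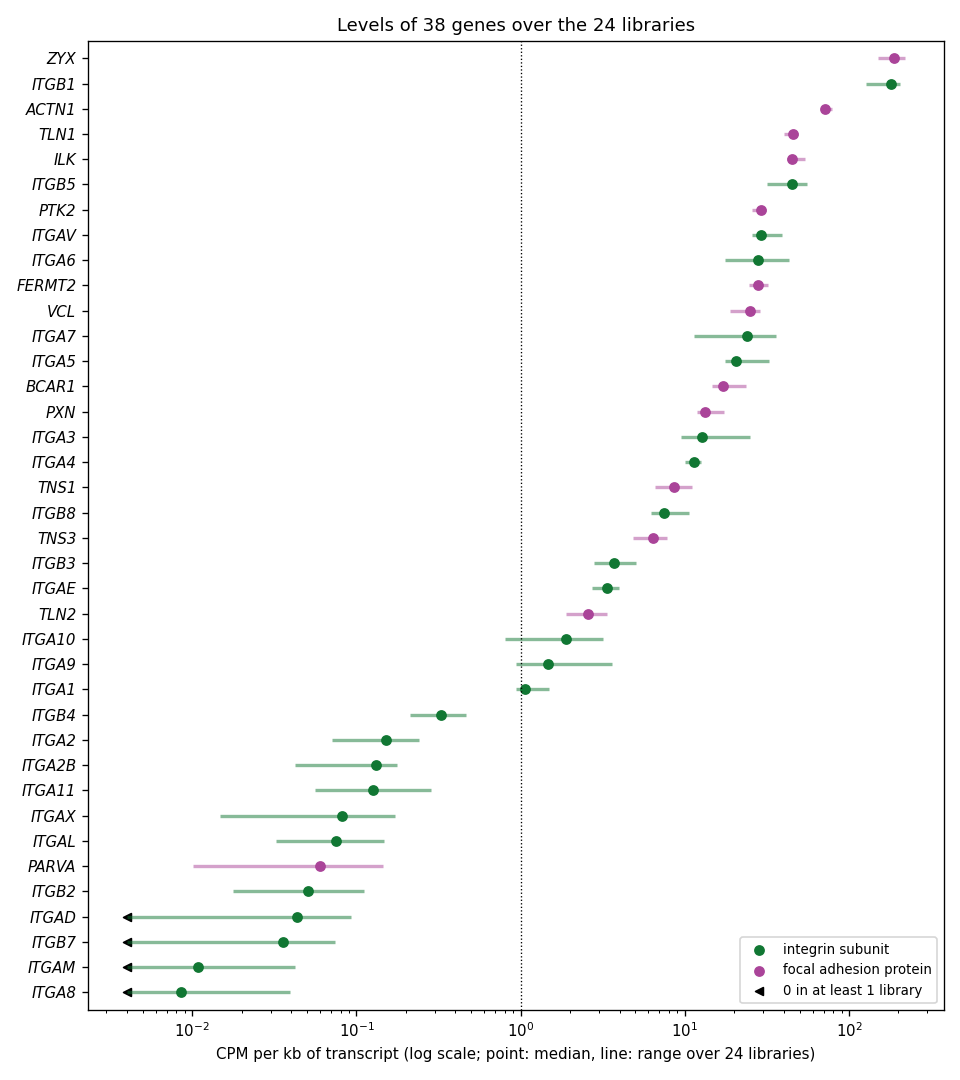
Levels of 38 of the 39 genes on a log axis of CPM per kb of transcript, with the median as a point and the range over 24 libraries as a line. Green marks integrin subunits and purple focal adhesion proteins, the dotted line is 1 CPM per kb, triangles mark genes at 0 in at least 1 library, and ITGB6, at 0 in all 24, is left out. A group of 26 genes lies at or above the dotted line and the leukocyte subunits other than ITGAE lie below it.

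Levels between treatments were compared at day 5, where each group had 3 libraries, in edgeR by a quasi-likelihood test, with p-values adjusted over all 16491 genes tested (Benjamini-Hochberg) and genes called at an adjusted p under 0.01. The filter on low counts kept 29 of the 39 genes, and the 10 left out were the 11 low genes other than ITGA2. In bulk RNA a lower level from a smaller share of cells that express a gene and one from less of its RNA per cell cannot be told apart. CPM is also relative to the other RNA of a library. Of the 29 genes tested, 8 were higher with LLY-283 (27.6%, against 12% of all genes tested) and 4 were lower (13.8%, against 14.1% of all genes tested). The median log2 fold change was -0.02 over the 29 genes and 0.02 over all genes tested. All 3 laminin-binding α subunits, ITGA6, ITGA7 and ITGA3, were higher, as were ITGA10 and ITGA1 of the 4 collagen-binding subunits, ITGAV with 1 of its β partners, ITGB8, and the adapter PXN. The fibronectin receptor subunit ITGA5 was lower, together with ZYX, ACTN1 and PTK2. A shared fit of 22 libraries that takes in day 7 called ITGA6, ITGB8 and ITGAV higher and ITGA5 and ZYX lower, and the other 7 genes were not called in it (adjusted p between 0.0118 and 0.328). None of the 3 activators, TLN1, TLN2 and FERMT2, was called. The 3 vehicle and 3 LLY-283 libraries did not overlap for 19 of the 29 genes, 8 higher and 11 lower with LLY-283, where 46.3% of all genes tested did not overlap, 20.8% higher and 25.6% lower.

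At day 0, with the same number of libraries, 0 of 30 genes tested were called by edgeR or by DESeq2. Of all genes 0.0169% were called higher and 0% lower. An unadjusted edgeR p under 0.05 was found for 2 of the 30 (ITGA6 and TNS3) and for 1012 of all 17780 genes tested. The treatment groups of day 0 did not overlap for 3 of the 30 genes, all higher with LLY-283, where 11.9% of all genes did not, 7.06% higher and 4.85% lower. The change from day 0 to day 5 was then tested within each treatment. With vehicle, 10 of 30 genes tested were higher at day 5 (33.3%, against 22.2% of all genes) and 8 were lower (26.7%, against 16.7%). With LLY-283, 11 of 29 were higher (37.9%, against 22.9%) and 8 were lower (27.6%, against 19.5%). ITGA9, ITGAV, ITGB1, ITGB5, TLN1, VCL and BCAR1 rose in both treatments and ITGA3, ITGA6, ITGB3, TLN2, ZYX and TNS3 fell in both. ITGA10 fell with vehicle and rose with LLY-283. The libraries of day 0 and day 5 did not overlap for 20 of 30 genes with vehicle, 11 higher and 9 lower (57.2% of all genes, 31.1% higher and 26.1% lower), and for 20 of 29 with LLY-283, 12 higher and 8 lower (57.6% of all genes, 28.7% higher and 29.0% lower). These time contrasts use the same libraries as the comparisons between treatments and are no independent evidence for them.

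**Figure D2:**
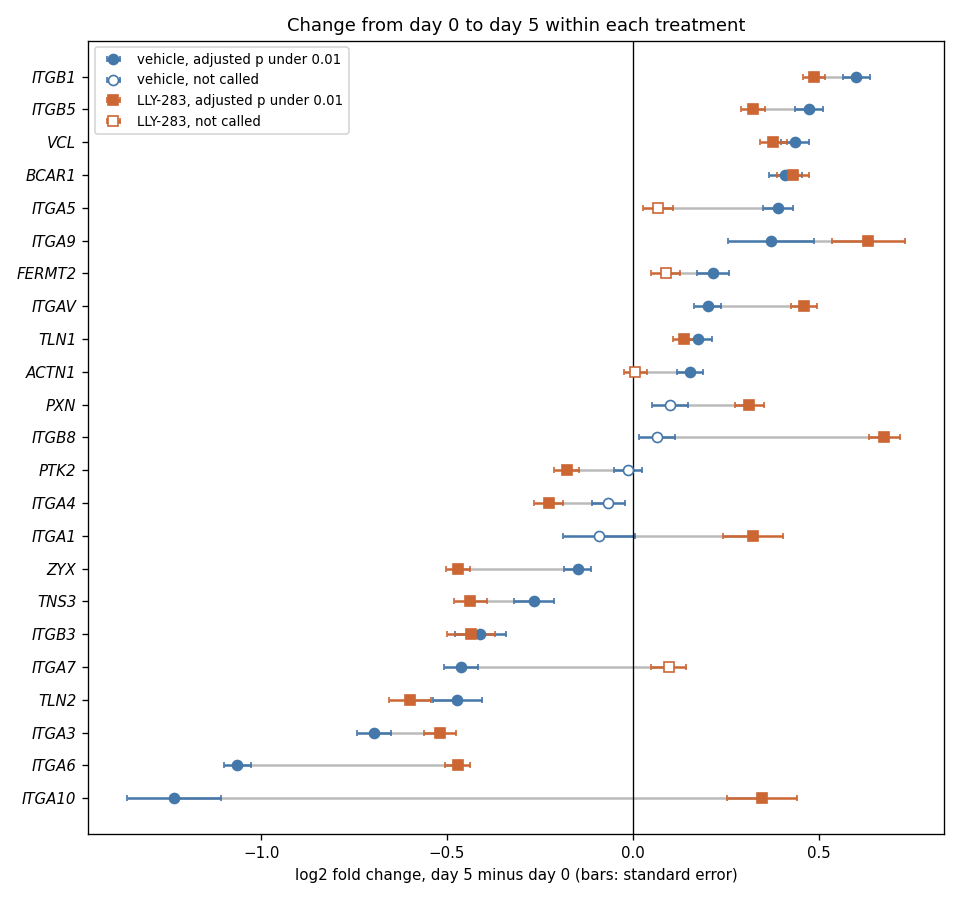
Log2 fold change from day 0 to day 5 with vehicle (circles) and LLY-283 (squares) for the 23 genes called in at least 1 of the 2 time contrasts, each from 3 against 3 libraries, with the standard error as a bar. Filled symbols mark an adjusted p under 0.01 and open symbols genes not called. ITGA10 lies at -1.24 with vehicle and at 0.35 with LLY-283, and ITGB1 at 0.60 and 0.49.

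The bases before the start of 4 of these genes are shown because they belong to the collagen-binding pair ITGA10 and ITGA1, higher at day 5, and to ITGA5 and ZYX, lower at day 5. They are RefSeq sequence on GRCh38.p14, read 5′ to 3′, from up to 250 bases before the RefSeq start and ending where the annotated gene begins, and capitals mark a GC box (GGGCGG or its complement CCGCCC).
ITGA10, chr1:145910112-145910300, minus strand: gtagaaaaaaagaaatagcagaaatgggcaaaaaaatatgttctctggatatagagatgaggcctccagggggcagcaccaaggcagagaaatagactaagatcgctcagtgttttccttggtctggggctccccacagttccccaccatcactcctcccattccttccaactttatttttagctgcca
ITGA1, chr5:52787666-52787915, plus strand: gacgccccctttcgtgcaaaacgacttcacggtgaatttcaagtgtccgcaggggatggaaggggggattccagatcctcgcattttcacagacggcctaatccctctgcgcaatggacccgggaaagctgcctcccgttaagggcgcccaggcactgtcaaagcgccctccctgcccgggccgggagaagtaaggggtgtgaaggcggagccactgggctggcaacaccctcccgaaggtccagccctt
ITGA5, chr12:54419267-54419516, minus strand: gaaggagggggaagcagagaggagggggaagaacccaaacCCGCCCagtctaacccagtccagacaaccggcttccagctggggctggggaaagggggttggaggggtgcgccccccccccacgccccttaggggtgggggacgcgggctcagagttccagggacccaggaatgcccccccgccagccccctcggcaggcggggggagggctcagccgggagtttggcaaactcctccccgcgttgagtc
ZYX, chr7:143381095-143381294, plus strand: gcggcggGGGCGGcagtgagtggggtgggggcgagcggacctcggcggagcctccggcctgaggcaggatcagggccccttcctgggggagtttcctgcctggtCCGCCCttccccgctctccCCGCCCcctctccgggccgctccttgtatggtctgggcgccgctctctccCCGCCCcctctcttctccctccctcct
The sequences before ITGA5 and ZYX hold a GC box and have a GC content of 70% and 74.5%, whereas those before ITGA10 and ITGA1 hold none and have a GC content of 46.03% and 62%. Both strands were searched, over the 250 bases before each start, and 42.6% of 35116 such windows held a GC box, as did 25 of the 47 windows of the 39 genes. Windows were found for 28 of the 39 genes, several for some, of which 18 held a GC box in at least 1 window. They were found for 9 of the 12 genes called at day 5, of which 6 held one (ACTN1, ITGA5, ITGA6, ITGB8, PXN and ZYX). ITGA6, ITGB8 and PXN were higher with LLY-283 at day 5, so a GC box was not limited to genes that were lower. An E-box of the letters CACGTG stood in 6.35% of all windows and in a window of 2 of the 28 genes, of which ITGA6 was called at day 5. These matches describe letters in a window and were not linked to binding.

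Among the collagen-binding subunits, ITGA10 (ENSG00000143127, chr1:145891208-145910111, minus strand), the α10 subunit known from cartilage, showed the largest treatment difference of the 29 genes. ITGA10 lay at 14.9, 11.1 and 11.9 CPM in the vehicle libraries of day 0 and at 10.6, 12.8 and 12.4 CPM in the LLY-283 libraries of that day. By day 5, ITGA10 lay at 5.78, 5.45 and 4.95 CPM with vehicle and at 13.4, 14.9 and 16.2 CPM with LLY-283. The 6 libraries of day 5 fell into separate groups, with the vehicle libraries below all 6 libraries of day 0 and the LLY-283 libraries overlapping them. Its log2 fold change between treatments at day 5 was 1.49 ± 0.12 (standard error, edgeR adjusted p = 7.98e-11), and in the shared fit of 22 libraries it was not called (log2 1.46, adjusted p = 0.0135). From day 0 to day 5 it changed by -1.24 ± 0.13 on the log2 scale with vehicle (edgeR adjusted p = 4.49e-09) and by 0.35 ± 0.09 with LLY-283 (adjusted p = 0.00302). The rise with LLY-283 was lost when repeat 1 of day 0 was left out, or repeat 2 or 3 of day 5 (log2 0.27, 0.35 and 0.27, edgeR adjusted p = 0.0328, 0.0133 and 0.0314) and with DESeq2 (log2 0.33, adjusted p = 0.0243). In the shared fit of 22 libraries neither time contrast of ITGA10 was called (adjusted p = 0.019 with vehicle and 0.47 with LLY-283), and without both day 7 libraries labelled repeat 2 that fit gave an adjusted p of 0.0117 for the rise with LLY-283. An exon of ITGA10 shares 122 nt with an antisense transcript, ENSG00000244619.

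ITGA1 (ENSG00000213949, chr5:52787916-52959209, plus strand), the α1 subunit that binds basement membrane collagen, was higher with LLY-283 at day 5. ITGA1 lay at 11.97, 11.8 and 10.5 CPM in the vehicle libraries of day 0 and at 11.7, 11.2 and 11.6 CPM in the LLY-283 libraries of that day. By day 5, ITGA1 lay at 10.7, 10.5 and 11.5 CPM with vehicle and at 14.6, 13.9 and 14.1 CPM with LLY-283. All 3 LLY-283 libraries of day 5 lay above the other 9. The log2 fold change between treatments was 0.41 ± 0.09 at day 5 (edgeR adjusted p = 0.000715), and with LLY-283 it rose by 0.32 ± 0.08 from day 0 (adjusted p = 0.00165), against -0.09 ± 0.10 with vehicle (adjusted p = 0.462). With DESeq2 the rise with LLY-283 was not called (log2 0.31, adjusted p = 0.0252), and the shared fit called neither the day 5 difference nor this rise (adjusted p = 0.0118 and 0.0202). ITGA1 shares 499 nt of exon with PELO on the same strand, so part of its reads could come from that gene. ITGA2 and ITGA11 were not called at day 5, at log2 0.31 ± 0.31 and -0.13 ± 0.38, each under 3 CPM in all 24 libraries. ITGA11, known from fibroblasts, lay at 0.870, 1.05 and 2.88 CPM in the vehicle libraries of day 5, highest in the library with high FN1 and COL1A1.

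Among the laminin-binding subunits, ITGA6 (ENSG00000091409, chr2:172427354-172506459, plus strand) fell in both treatments from day 0 and fell less with LLY-283. ITGA6 lay at 223, 235 and 232 CPM in the vehicle libraries of day 0 and at 249, 242 and 240.1 CPM in the LLY-283 libraries of that day. By day 5, ITGA6 lay at 112, 110.3 and 112 CPM with vehicle and at 183, 168 and 171 CPM with LLY-283. The 3 LLY-283 libraries of day 5 lay between the day 0 libraries and the vehicle libraries of day 5, with no overlap. From day 0 the log2 change was -1.06 ± 0.04 with vehicle (edgeR adjusted p = 6.16e-19) and -0.47 ± 0.03 with LLY-283 (adjusted p = 2.21e-11). At day 5 the level was higher with LLY-283 by 0.67 ± 0.04 on the log2 scale (edgeR adjusted p = 2.02e-13).

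ITGA7 (ENSG00000135424, chr12:55684568-55716404, minus strand), the α7 laminin receptor subunit known from muscle, fell with vehicle. ITGA7 lay at 109, 101 and 101 CPM in the vehicle libraries of day 0 and at 99.2, 105 and 97.8 CPM in the LLY-283 libraries of that day. By day 5, ITGA7 lay at 75.2, 80.1 and 73.4 CPM with vehicle and at 101, 104 and 113 CPM with LLY-283. Only the vehicle libraries of day 5 stood apart from the other 9. The log2 change from day 0 was -0.46 ± 0.05 with vehicle (edgeR adjusted p = 1.99e-09) and 0.10 ± 0.05 with LLY-283, which did not pass (adjusted p = 0.0904), and the treatment difference at day 5 was 0.50 ± 0.05 (adjusted p = 5.23e-08). In the shared fit neither the day 5 difference of ITGA7 nor its fall with vehicle was called (adjusted p = 0.017 and 0.0129). ITGA3 (ENSG00000005884, chr17:50055968-50090481, plus strand), the α3 subunit, fell in both. ITGA3 lay at 89.1, 90.6 and 82.8 CPM in the vehicle libraries of day 0 and at 85.7, 91.7 and 83.9 CPM in the LLY-283 libraries of that day. By day 5, ITGA3 lay at 55.04, 54.5 and 54.2 CPM with vehicle and at 61.1, 57.5 and 61.2 CPM with LLY-283. The day 5 groups did not overlap, but their gap was small beside the fall from day 0. ITGA3 changed by -0.70 ± 0.05 from day 0 with vehicle and by -0.52 ± 0.04 with LLY-283 (edgeR adjusted p = 7.53e-13 and 2.77e-10), and the treatment difference at day 5 was 0.16 ± 0.05 (adjusted p = 0.00896). That difference passed no longer whichever of the 6 libraries was left out, with an adjusted p of up to 0.0583 and a log2 value between 0.14 and 0.19, nor with DESeq2 (log2 0.15, adjusted p = 0.0587).

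Of the RGD-binding subunits, ITGAV (ENSG00000138448, chr2:186590010-186680901, plus strand), which pairs with β1, β3, β5, β6 or β8, rose with time and more with LLY-283. ITGAV lay at 182, 188 and 186 CPM in the vehicle libraries of day 0 and at 199, 188 and 186 CPM in the LLY-283 libraries of that day. By day 5, ITGAV lay at 210.3, 213 and 223 CPM with vehicle and at 273, 252 and 255 CPM with LLY-283. The 3 groups of libraries, day 0, vehicle day 5 and LLY-283 day 5, did not overlap. Its log2 change from day 0 was 0.20 ± 0.04 with vehicle (edgeR adjusted p = 4.29e-05) and 0.46 ± 0.04 with LLY-283 (adjusted p = 5.66e-11), and the treatment difference at day 5 was 0.30 ± 0.04 (adjusted p = 3.42e-07). Its rise with vehicle was not called in the shared fit (log2 0.22, adjusted p = 0.0117). ITGA5 (ENSG00000161638, chr12:54395261-54419266, minus strand), the α subunit of the fibronectin receptor α5β1, went the other way. ITGA5 lay at 84.1, 82.7 and 81.6 CPM in the vehicle libraries of day 0 and at 85.2, 83.4 and 88.1 CPM in the LLY-283 libraries of that day. By day 5, ITGA5 lay at 110.0, 109 and 110.1 CPM with vehicle and at 85.6, 90.5 and 89.4 CPM with LLY-283. The other 9 libraries lay below the vehicle libraries of day 5. ITGA5 rose by 0.39 ± 0.04 with vehicle (edgeR adjusted p = 3.09e-09), changed by 0.07 ± 0.04 with LLY-283 without passing (adjusted p = 0.168), and was lower with LLY-283 at day 5, at -0.28 ± 0.04 (adjusted p = 2.83e-06). Without vehicle day 5 repeat 3, the library with high FN1, ITGA5 kept its call, as in every other library left out (log2 -0.30 to -0.27, adjusted p of at most 4.04e-05).

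Neither subunit of the α4 and α9 class was called between treatments at day 5. ITGA4, which binds VCAM1 and fibronectin, was at log2 -0.13 ± 0.05 (edgeR adjusted p = 0.0218), with 76.6, 75.5 and 82.2 CPM in the vehicle and 71.97, 67.7 and 70.1 CPM in the LLY-283 libraries, which did not overlap. It had been at 78.1, 80.8 and 83.5 CPM with vehicle and 80.7, 84.3 and 83.6 CPM with LLY-283 at day 0 and fell with LLY-283 by 0.23 ± 0.04 on the log2 scale (edgeR adjusted p = 2.8e-05). ITGA9, a receptor for tenascin-C and osteopontin, rose from day 0 with LLY-283, by 0.63 ± 0.10 (edgeR adjusted p = 6.36e-06). ITGA9 lay at 8.81, 7.41 and 7.56 CPM in the vehicle libraries of day 0 and at 8.20, 8.02 and 8.66 CPM in the LLY-283 libraries of that day. By day 5, ITGA9 lay at 11.8, 9.46 and 9.75 CPM with vehicle and at 14.1, 12.9 and 11.3 CPM with LLY-283. All 6 libraries of day 5 lay above the 6 of day 0, and vehicle repeat 1 of day 5 lay within the range of the LLY-283 libraries. With vehicle its rise of 0.37 ± 0.12 (edgeR adjusted p = 0.00884) was lost when repeat 1 of day 5 was left out, or repeat 2 or 3 of day 0 (adjusted p = 0.0898, 0.0495 and 0.034), and in other settings (DESeq2, library size alone, a minimum of 10 counts and the shared fit, adjusted p = 0.053, 0.0287, 0.012 and 0.0222). Between treatments at day 5 it was at 0.32 ± 0.11 (edgeR adjusted p = 0.0192), and it passed when repeat 1 of vehicle or repeat 3 of LLY-283 was left out (log2 0.42 and 0.40, adjusted p = 0.00964 and 0.00988).

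The shared β1 subunit rose with time in both treatments. ITGB1 lay at 477, 480.0 and 501 CPM in the vehicle libraries of day 0 and at 505, 498 and 493 CPM in the LLY-283 libraries of that day. By day 5, ITGB1 lay at 754, 721 and 759.7 CPM with vehicle and at 719, 676 and 676 CPM with LLY-283. Every library of day 5 lay above every library of day 0. ITGB1 rose by 0.60 ± 0.04 with vehicle (edgeR adjusted p = 7.96e-14) and by 0.49 ± 0.03 with LLY-283 (adjusted p = 1.33e-12). Between treatments at day 5 it was at -0.08 ± 0.03 and was not called (edgeR adjusted p = 0.0578), although without LLY-283 day 5 repeat 1 it was called lower (log2 -0.12, adjusted p = 0.00503). ITGAV and the subunits ITGA1 to ITGA11, 12 α subunits that can pair with β1, were also summed per kb of transcript. Their sum was 145.2 ± 1.097 CPM per kb (SD, n = 3) at day 0 and 120.4 ± 0.985 at day 5 with vehicle, and 148 ± 1.595 at day 0 and 142 ± 2.78 at day 5 with LLY-283. ITGB1 was 130.0 ± 3.47 and 199 ± 5.70 CPM per kb at these days with vehicle, and 133.5 ± 1.601 and 185 ± 6.58 with LLY-283. The sum was lower and ITGB1 higher at day 5 than at day 0 in each library of both treatments. ITGA6 made up 27.2% ± 0.779 of the sum at day 0 and 15.9% ± 0.140 at day 5 with vehicle, and 28.25% ± 0.422 at day 0 and 21.0% ± 0.717 at day 5 with LLY-283. For the sum, for ITGB1 and for the share of ITGA6 neither the treatments at day 5 nor the days within a treatment overlapped (two-sided exact permutation test p = 0.1 for each, the smallest that 3 against 3 allows, adjusted p = 0.109 over 12 comparisons). The ITGB1 groups of day 5 were close, at most 192.4 CPM per kb with LLY-283 and at least 192.9 with vehicle. These levels were scaled over all 24 libraries, not over those of day 5 alone. The share of ITGAV was 25.4% ± 0.562 with vehicle and 26.0% ± 0.858 with LLY-283 at day 5, and these overlapped (exact permutation p = 0.5, adjusted p = 0.5).

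Of the other β partners of αV, ITGB8 (ENSG00000105855, chr7:20330702-20415754, plus strand), whose αVβ8 receptor activates latent TGF-β, was higher with LLY-283. ITGB8 lay at 59.1, 58.8 and 58.3 CPM in the vehicle libraries of day 0 and at 60.5, 57.3 and 56.2 CPM in the LLY-283 libraries of that day. By day 5, ITGB8 lay at 58.2, 62.6 and 65.9 CPM with vehicle and at 93.1, 87.8 and 93.9 CPM with LLY-283. The 3 LLY-283 libraries of day 5 lay above the other 9. ITGB8 rose with LLY-283 by 0.68 ± 0.04 (edgeR adjusted p = 1.5e-12) and was at 0.07 ± 0.05 with vehicle (adjusted p = 0.281), and the treatment difference at day 5 was 0.59 ± 0.05 (adjusted p = 1.8e-10). ITGB5 and ITGB3, the β subunits of vitronectin receptors, changed with time but were not called between treatments. ITGB5 lay at 159, 172 and 168 CPM in the vehicle libraries of day 0 and at 169, 178 and 175 CPM in the LLY-283 libraries of that day. By day 5, ITGB5 lay at 239.7, 231 and 229 CPM with vehicle and at 223, 215 and 208 CPM with LLY-283. Every library of day 5 lay above every library of day 0, and at day 5 the vehicle libraries lay above the LLY-283 libraries. ITGB5 rose by 0.47 ± 0.04 with vehicle and by 0.32 ± 0.03 with LLY-283 (edgeR adjusted p = 2.42e-11 and 1.19e-08). The difference between treatments was -0.09 ± 0.04 (edgeR adjusted p = 0.043), and without LLY-283 day 5 repeat 1 ITGB5 was called lower (log2 -0.12, adjusted p = 0.00759).

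ITGB3 lay at 27.7, 26.98 and 27.1 CPM in the vehicle libraries of day 0 and at 26.03, 29.9 and 28.98 CPM in the LLY-283 libraries of that day. By day 5, ITGB3 lay at 21.9, 21.3 and 18.9 CPM with vehicle and at 21.9, 20.3 and 19.8 CPM with LLY-283. All 6 libraries of day 5 lay below all 6 of day 0, and the treatments overlapped at day 5. ITGB3 fell with time in both treatments, at -0.41 ± 0.07 with vehicle and -0.44 ± 0.07 with LLY-283 (edgeR adjusted p = 1.24e-05 and 4.41e-06), and its treatment difference at day 5 was 0.02 ± 0.07 (adjusted p = 0.873). ITGB3 shares 2266 nt of exon with ENSG00000259753 on the same strand, so its counts are uncertain. ITGB4, the hemidesmosome subunit, lay between 1.24 and 2.74 CPM over the 24 libraries and was not called in any comparison.

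**Figure D3:**
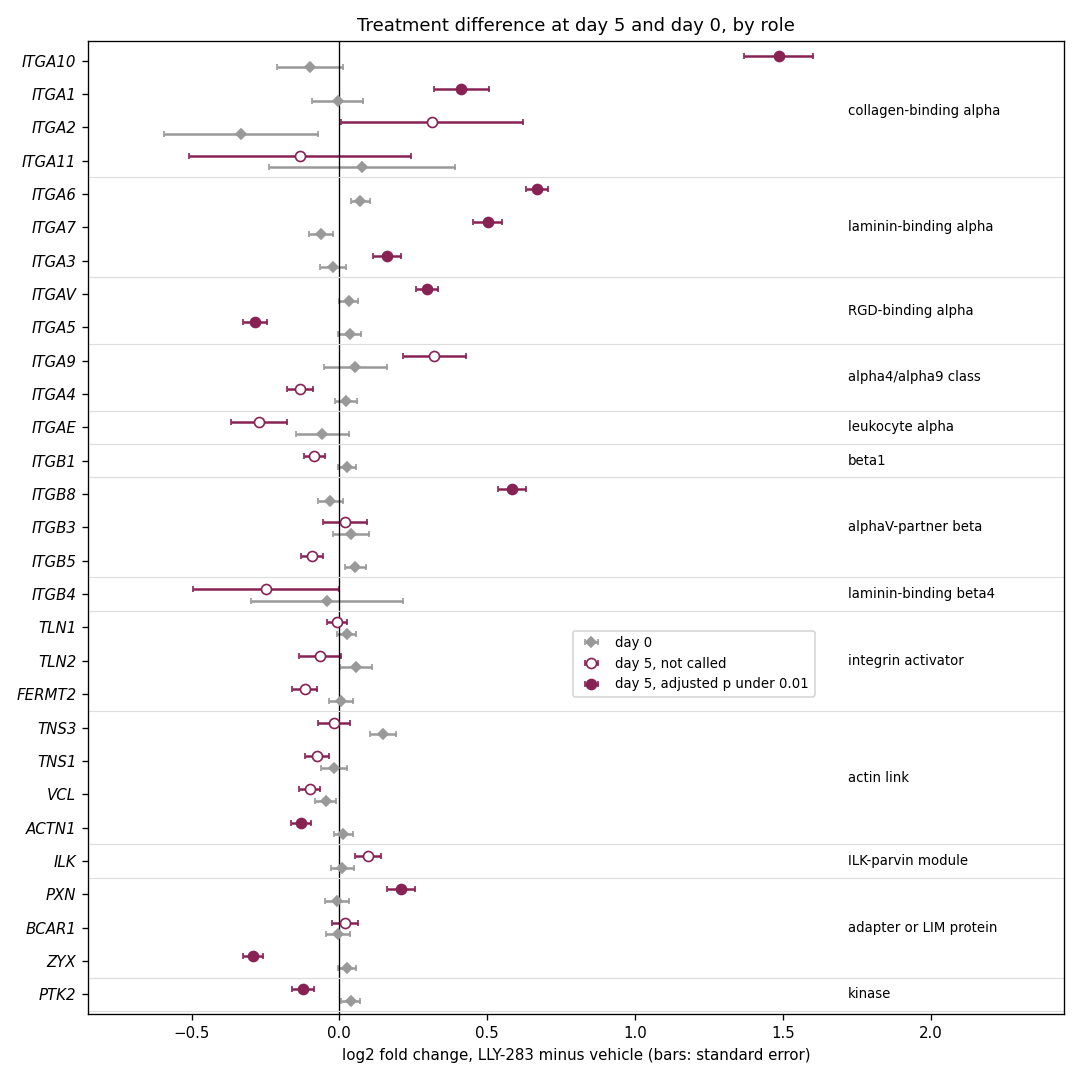
Log2 fold change of LLY-283 minus vehicle for the 29 genes tested at day 5 (circles, filled where the adjusted p was under 0.01) and the same genes at day 0 (grey diamonds), grouped by role, each from 3 against 3 libraries, with the standard error as a bar. The day 5 values run from -0.29 for ZYX to 1.49 for ITGA10, and at day 0 no gene was called.

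The proteins that switch integrins on showed no called treatment difference. TLN1 and TLN2 encode the talins and FERMT2 encodes kindlin-2. TLN1 lay at 348, 361 and 359 CPM in the vehicle libraries of day 0 and at 353, 375 and 368 CPM in the LLY-283 libraries of that day. By day 5, TLN1 lay at 424, 402 and 395 CPM with vehicle and at 405, 392 and 395 CPM with LLY-283. The day 5 libraries of both treatments lay above those of day 0 and overlapped each other. TLN1 rose with time by 0.18 ± 0.04 with vehicle and 0.14 ± 0.03 with LLY-283 (edgeR adjusted p = 0.00021 and 0.000568), and the shared fit did not call the rise with LLY-283 (adjusted p = 0.0397). TLN2 lay at 33.4, 36.9 and 38.1 CPM in the vehicle libraries of day 0 and at 36.8, 37.3 and 39.6 CPM in the LLY-283 libraries of that day. By day 5, TLN2 lay at 28.6, 24.3 and 25.9 CPM with vehicle and at 23.6, 25.2 and 25.1 CPM with LLY-283. For this gene the day 5 libraries lay below those of day 0, and the treatments again overlapped. TLN2 fell by 0.47 ± 0.07 with vehicle and by 0.60 ± 0.06 with LLY-283 (edgeR adjusted p = 8.96e-07 and 2.87e-09). FERMT2 lay at 80.2, 87.6 and 89.2 CPM in the vehicle libraries of day 0 and at 89.8, 85.2 and 85.4 CPM in the LLY-283 libraries of that day. By day 5, FERMT2 lay at 99.8, 97.3 and 105 CPM with vehicle and at 94.8, 87.4 and 91.4 CPM with LLY-283. The other 9 libraries lay below the vehicle libraries of day 5. FERMT2 rose with vehicle by 0.22 ± 0.04 (edgeR adjusted p = 0.000166) and was at 0.09 ± 0.04 with LLY-283 (adjusted p = 0.0617). At day 5 the treatment differences were -0.01 ± 0.04 for TLN1, -0.07 ± 0.07 for TLN2 and -0.12 ± 0.04 for FERMT2 (edgeR adjusted p = 0.88, 0.505 and 0.0301).

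Of the proteins that link integrins to actin, ACTN1 (ENSG00000072110, chr14:68874128-68979440, minus strand) was lower with LLY-283 at day 5. ACTN1 lay at 252, 252 and 250.1 CPM in the vehicle libraries of day 0 and at 251, 264 and 253 CPM in the LLY-283 libraries of that day. By day 5, ACTN1 lay at 287, 284 and 276 CPM with vehicle and at 258, 252 and 252 CPM with LLY-283. The other 9 libraries lay below the vehicle libraries of day 5. ACTN1 rose by 0.15 ± 0.04 with vehicle (edgeR adjusted p = 0.00067; 0.0133 with library size alone as the scaling) and was at 0.01 ± 0.03 with LLY-283 (adjusted p = 0.881), and the treatment difference at day 5 was -0.13 ± 0.03 (adjusted p = 0.00373). The call was lost when any 1 of vehicle repeats 1 and 2 and LLY-283 repeats 2 and 3 was left out, at an adjusted p between 0.0136 and 0.0235. With library size alone as the scaling ACTN1 and PTK2 were not called at day 5 (log2 -0.10 and -0.09, adjusted p = 0.0133 and 0.0344), and the counts were 8 higher and 2 lower in place of 8 and 4.

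VCL, which encodes vinculin, rose in both treatments. VCL lay at 111, 113 and 113 CPM in the vehicle libraries of day 0 and at 104, 114 and 112 CPM in the LLY-283 libraries of that day. By day 5, VCL lay at 153, 152 and 157 CPM with vehicle and at 143, 139.9 and 139.8 CPM with LLY-283. All libraries of day 5 lay above those of day 0, with the vehicle libraries on top. Its rise was 0.44 ± 0.04 with vehicle and 0.38 ± 0.04 with LLY-283 (edgeR adjusted p = 9.43e-11 and 4.02e-09), and at day 5 the treatments differed by -0.10 ± 0.04 without a call (adjusted p = 0.031). TNS3, a tensin, fell in both. TNS3 lay at 50.9, 56.1 and 51.3 CPM in the vehicle libraries of day 0 and at 58.5, 59.3 and 59.2 CPM in the LLY-283 libraries of that day. By day 5, TNS3 lay at 47.2, 42.7 and 42.99 CPM with vehicle and at 44.2, 42.8 and 42.1 CPM with LLY-283. The 6 libraries of day 5 lay below the 6 of day 0, and the treatments overlapped at day 5. TNS3 changed by -0.27 ± 0.05 with vehicle and -0.44 ± 0.04 with LLY-283 (edgeR adjusted p = 0.000171 and 7.68e-09). TNS1, another tensin, was called in none of these comparisons, with CPM between 67.6 and 115 over the 24 libraries. ILK was also not called, at 0.10 ± 0.04 between treatments at day 5 (edgeR adjusted p = 0.0808), with CPM between 73.2 and 95.2.

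The adapters moved in different directions. ZYX (ENSG00000159840, chr7:143381295-143391111, plus strand), a LIM protein of mature focal adhesions and stress fibres, fell with time and more with LLY-283. ZYX lay at 455, 479 and 465 CPM in the vehicle libraries of day 0 and at 488, 477 and 473 CPM in the LLY-283 libraries of that day. By day 5, ZYX lay at 425, 428 and 422 CPM with vehicle and at 339, 334 and 350.2 CPM with LLY-283. The LLY-283 libraries of day 5 lay below the vehicle libraries of day 5, which in turn lay below those of day 0. ZYX changed by -0.15 ± 0.04 with vehicle (edgeR adjusted p = 0.000915) and by -0.47 ± 0.03 with LLY-283 (adjusted p = 6.26e-12), and the treatment difference at day 5 was -0.29 ± 0.03 (adjusted p = 1.45e-07). The fall with vehicle was lost when repeat 1 of day 5 or repeat 2 of day 0 was left out (log2 -0.14 and -0.13, edgeR adjusted p = 0.0107 and 0.0177) and in the shared fit (log2 -0.13, adjusted p = 0.0581). PXN (ENSG00000089159, chr12:120210439-120265771, minus strand), which encodes paxillin, was higher with LLY-283. PXN lay at 64.5, 62.01 and 62.4 CPM in the vehicle libraries of day 0 and at 62.9, 62.6 and 63.9 CPM in the LLY-283 libraries of that day. By day 5, PXN lay at 73.4, 64.2 and 66.9 CPM with vehicle and at 78.7, 77.3 and 76.4 CPM with LLY-283. The treatment groups of day 5 did not overlap, and vehicle repeat 1 lay nearest to the LLY-283 libraries. PXN rose with LLY-283 by 0.31 ± 0.04 (edgeR adjusted p = 2.52e-07), was at 0.10 ± 0.05 with vehicle (adjusted p = 0.0938), and differed between treatments by 0.21 ± 0.05 (adjusted p = 0.000932), which was lost without vehicle day 5 repeat 2 (log2 0.16, adjusted p = 0.0256).

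BCAR1, which encodes p130Cas, rose in both groups. BCAR1 lay at 65.3, 63.7 and 61.3 CPM in the vehicle libraries of day 0 and at 63.6, 63.6 and 64.2 CPM in the LLY-283 libraries of that day. By day 5, BCAR1 lay at 83.7, 85.6 and 86.6 CPM with vehicle and at 80.8, 88.3 and 85.3 CPM with LLY-283. Both treatments lay above day 0 at day 5 and overlapped each other. The rise was 0.41 ± 0.04 with vehicle and 0.43 ± 0.04 with LLY-283 (edgeR adjusted p = 9.06e-09 and 6.03e-09), and the treatment difference at day 5 was 0.02 ± 0.04 (adjusted p = 0.767). PTK2 (ENSG00000169398), which encodes FAK, was lower with LLY-283 by a small margin. PTK2 lay at 154, 149.7 and 156 CPM in the vehicle libraries of day 0 and at 161, 158 and 157 CPM in the LLY-283 libraries of that day. By day 5, PTK2 lay at 155, 151 and 154 CPM with vehicle and at 144, 137 and 134 CPM with LLY-283. Every LLY-283 library of day 5 lay below every vehicle library of that day. PTK2 fell with LLY-283 by 0.18 ± 0.03 on the log2 scale (edgeR adjusted p = 9.12e-05), was at -0.01 ± 0.04 with vehicle (adjusted p = 0.797), and differed between treatments at day 5 by -0.12 ± 0.04 (adjusted p = 0.00981). That call passed with LLY-283 day 5 repeat 1 left out and with none of the other 5 libraries left out, where the adjusted p lay between 0.0165 and 0.0577, nor with DESeq2 (adjusted p = 0.0168).

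Whether the treatment difference at day 5 differed from that at day 0 was tested directly in the 12 libraries of both days. It did for 8 of 32 genes tested, 6 with a more positive difference at day 5 (18.8%, against 6.78% of all genes) and 2 with a more negative one (6.25%, against 8.15%). The 6 were ITGA10, ITGB8, ITGA6, ITGA7, ITGA1 and ITGAV, and the 2 were ITGA5 and ZYX. ITGA10 differed by 1.59 ± 0.17 (edgeR adjusted p = 1.64e-07) and ITGA1, nearest to the threshold, by 0.42 ± 0.12 (adjusted p = 0.00966). ITGA1 was not called in 16 of its 21 alternatives. Without vehicle day 5 repeat 3, the library with high FN1, the counts were 6 and 2, and the day 5 comparison gave 7 higher and 3 lower, with ITGA3 and PTK2 not called (adjusted p = 0.033 and 0.0281).

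On days 1, 2, 3 and 10 each treatment had 1 library, and these 8 libraries were compared in a joint fit with day as a term. Of 29 genes tested, 0 were called by edgeR or DESeq2, where 0.0176% of all genes were called higher and 0% lower. An unadjusted edgeR p under 0.05 was found for 8 of the 29 and for 2997 of all 17042 genes tested. The signs of the differences were those of day 5 for 11 of the 12 genes called at day 5, the exception being ITGA3 at -0.06 ± 0.20. By single day the sign was that of day 5 for 7 of the 12 genes on day 1 and for 12 on day 3, and day 2 and day 10 each gave 11. These signs were counted on libraries of other days with no replicate. The same count over all genes called at day 5 is not given here, so it is open whether these genes differ from the rest.

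ITGA10 lay at 5.74, 6.39, 6.98 and 8.92 CPM with vehicle and at 4.79, 8.72, 11.5 and 15.6 CPM with LLY-283 on days 1, 2, 3 and 10. Both day 1 libraries lay below all libraries of day 0 with the same treatment, and from day 2 the LLY-283 library was the higher one. ITGB8 lay at 64.1, 71.5, 68.1 and 69.2 CPM with vehicle and at 71.8, 74.5, 95.6 and 93.6 CPM with LLY-283 on days 1, 2, 3 and 10. LLY-283 was above vehicle on each of these days, by the widest margin on days 3 and 10. ITGA6 lay at 194, 131, 106 and 152 CPM with vehicle and at 188, 146, 158 and 189.5 CPM with LLY-283 on days 1, 2, 3 and 10. The treatments were close on day 1 and LLY-283 was above vehicle on days 2, 3 and 10. ZYX lay at 399.8, 407, 379 and 426 CPM with vehicle and at 373, 364, 375 and 361 CPM with LLY-283 on days 1, 2, 3 and 10. Here LLY-283 was below vehicle on all 4 days. In the joint fit the log2 difference was 0.47 ± 0.16 for ITGA10, 0.30 ± 0.07 for ITGB8, 0.26 ± 0.10 for ITGA6 and -0.12 ± 0.05 for ZYX (edgeR adjusted p = 0.162, 0.0772, 0.235 and 0.24). With no filter on low counts ITGA1, ITGA6, ITGA10 and ITGB8 were called higher (edgeR adjusted p = 0.00725, 0.000213, 0.00313 and 2.87e-05). The share of all genes called in that unfiltered fit is not given here, so these calls cannot be read as particular to these genes.

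At day 10 ITGA3 lay at 123 CPM with vehicle and 83.9 CPM with LLY-283, and ITGA5 at 138 and 107 CPM. The vehicle library of day 10 held the highest level of both genes among all 24 libraries. ITGA7 lay at 47.2 and 87.1 CPM at day 10, the vehicle library holding its lowest level of the 24, and at 104 and 149 CPM at day 3, the LLY-283 library holding its highest. On the scale of day 5 genes the vehicle library of day 10 lay at 60.6% and the LLY-283 library at 96.1%. With 1 library per treatment these values have no replicate check.

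At day 7, with libraries taken by their labels, 0 of 29 genes were called by edgeR or DESeq2, and 0% of all genes were called. An unadjusted edgeR p under 0.05 was found for 0 of the 29 and for 236 of all 16826 genes tested. ITGA10 lay at 5.89 and 8.40 CPM with vehicle and 14.7 and 4.12 CPM with LLY-283. ITGB8 lay at 56.3 and 71.6 CPM with vehicle and 86.8 and 58.2 CPM with LLY-283. For both genes LLY-283 was the higher treatment in repeat 1 and the lower one in repeat 2. Over the 12 genes called at day 5, the sign of the difference was that of day 5 for 11 in the repeat 1 libraries and for 2 in the repeat 2 libraries. The same count over all genes called at day 5 is not given here. With repeat 1 alone there is 1 library per treatment and no test.

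The time course tested in 22 libraries whether the treatment difference varied over days 0 to 7. It called 0 of 33 genes with edgeR and with DESeq2, where edgeR called 0.0289% of all genes. An unadjusted edgeR p under 0.05 was found for 7 of the 33 and for 3166 of all 20756 genes tested. These shares belong to the edgeR fit of all 22 libraries and are no background for the fits below that leave libraries out. Their share over all genes is not given here, so their counts cannot be read as particular to these genes. Without both day 7 libraries labelled repeat 2 it called 7 genes (ITGA3, ITGA5, ITGA6, ITGA7, ITGA10, ITGB8 and ZYX), with the smallest edgeR adjusted p at 8.57e-08 for ITGA6. Leaving out 1 day 7 library at a time gave 4 calls without LLY-283 repeat 1 (ITGA10, ITGAV, ITGB8 and ZYX), 3 without LLY-283 repeat 2 (ITGA10, ITGB8 and ZYX), 1 without vehicle repeat 1 (ITGA6) and 0 without vehicle repeat 2.

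**Figure D4:**
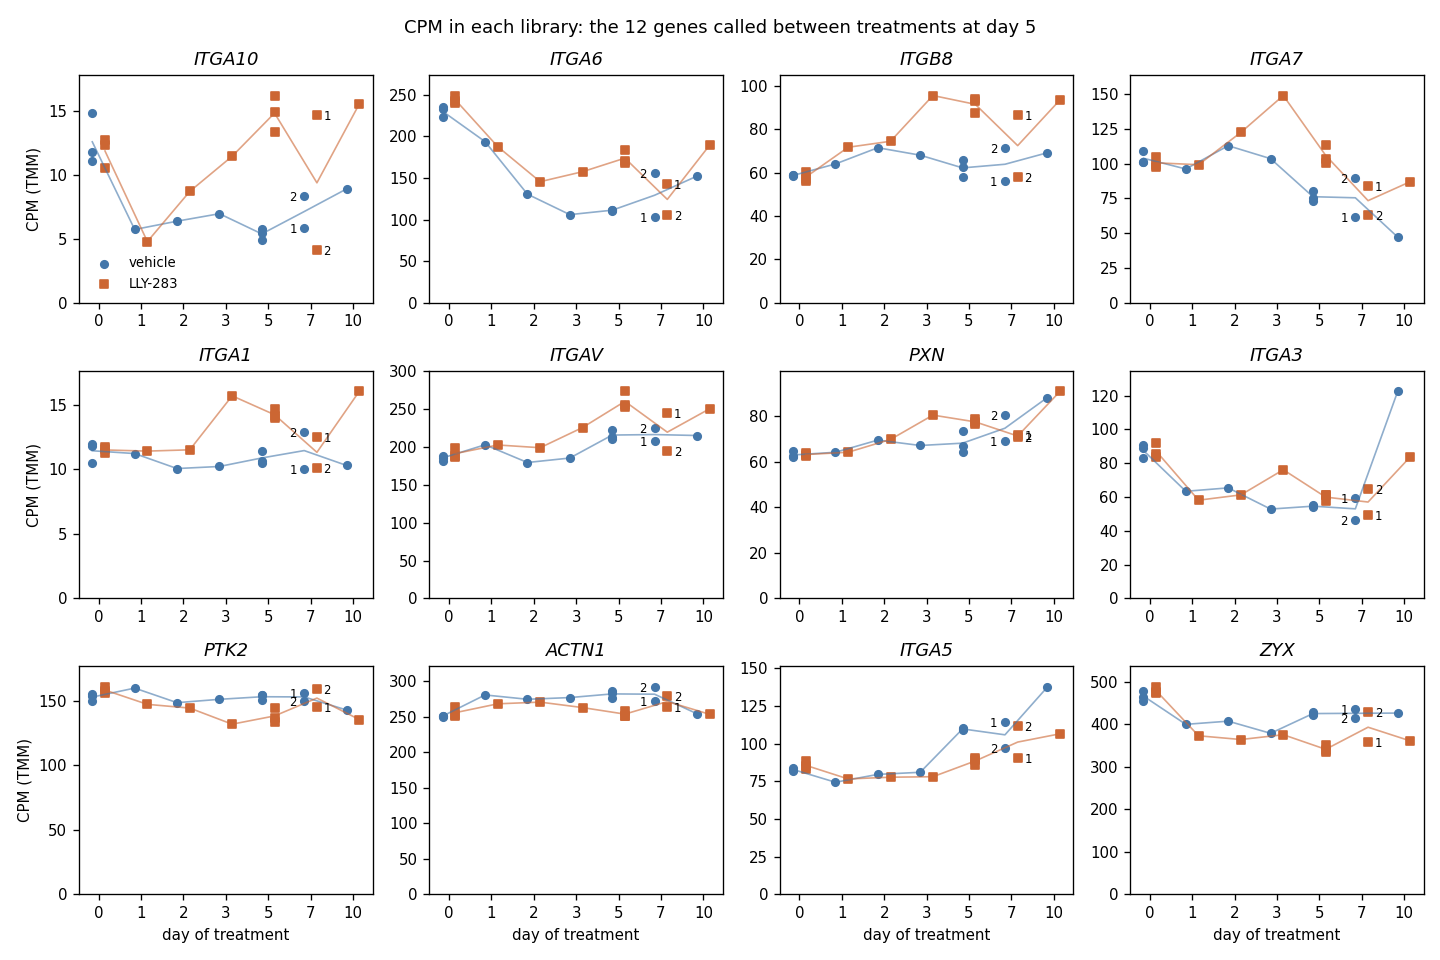
CPM in each of the 24 libraries for the 12 genes called at day 5, with vehicle as blue circles and LLY-283 as orange squares, lines through the daily means, and days 0 to 10 at equal spacing. The numbers 1 and 2 mark the repeats of day 7, where ITGA10 lies at 14.7 CPM with LLY-283 in repeat 1 and at 4.12 CPM in repeat 2.

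Lists of related genes were tested in the same day 5 fit, with up to 3 genes of smallest p given for each. The lists, here and below, were chosen with earlier results of these data known. Of 56 other focal adhesion genes 51 were tested, 12 were higher and 8 lower with LLY-283, where 12% of all genes tested were higher and 14.1% lower, and the median log2 fold change was 0.04. PTK2B lay at 29.1, 28.1 and 27.9 CPM with vehicle and 51.1, 55.96 and 58.9 CPM with LLY-283 (log2 0.99 ± 0.06, edgeR adjusted p = 1.33e-12), and this gene encodes PYK2, the closest relative of FAK. The libraries did not overlap, and its direction was opposite to that of PTK2. ARHGEF6 lay at 46.8, 50.8 and 50.7 CPM with vehicle and 78.3, 78.3 and 70.1 CPM with LLY-283 (log2 0.64 ± 0.05, edgeR adjusted p = 1.41e-10), which encodes the exchange factor αPIX. NEDD9 lay at 60.4, 58.1 and 58.8 CPM with vehicle and 82.6, 78.3 and 85.7 CPM with LLY-283 (log2 0.50 ± 0.05, edgeR adjusted p = 2.03e-09), a p130Cas family adapter. All 3 were higher in each LLY-283 library of day 5 than in any vehicle library of that day. Over both treatments at day 0, PTK2B lay at 104.2 to 112.0 CPM, ARHGEF6 at 45.8 to 49.3 CPM and NEDD9 at 62.8 to 68.2 CPM. All libraries of day 5 thus lay below day 0 for PTK2B, whereas the LLY-283 libraries lay above day 0 for ARHGEF6 and NEDD9.

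Of 37 integrin ligand genes 30 were tested, and 14 were higher and 2 lower. Among all genes tested 12% were higher and 14.1% lower. The median of the ligand genes was 0.20, against 0.02 for all genes. SPP1 lay at 35.4, 34.3 and 36.3 CPM with vehicle and 80.1, 78.9 and 68.6 CPM with LLY-283 (log2 1.13 ± 0.06, edgeR adjusted p = 2.38e-14), the gene of osteopontin, an RGD ligand. TNC lay at 219.6, 212 and 204 CPM with vehicle and 333, 326 and 344 CPM with LLY-283 (log2 0.68 ± 0.04, edgeR adjusted p = 8.52e-14), the gene of tenascin-C. COL4A1 lay at 89.5, 86.4 and 88.5 CPM with vehicle and 127, 113 and 119.5 CPM with LLY-283 (log2 0.47 ± 0.04, edgeR adjusted p = 1.11e-09), the gene of a basement membrane collagen chain. These 3 ligands were higher in every LLY-283 library of day 5 than in any vehicle library of that day. Over both treatments at day 0, SPP1 lay at 76.4 to 87.4 CPM, TNC at 305 to 313.8 CPM and COL4A1 at 89.6 to 98.5 CPM. For SPP1 and TNC the vehicle libraries of day 5 thus lay below day 0. At day 10, with 1 library each, vehicle and LLY-283 lay at 208.9 and 210.6 CPM for SPP1, 292.1 and 375.9 for TNC, and 165.8 and 189.8 for COL4A1. FN1, the ligand of α5β1, lay at 2.42, 2.69 and 60.4 CPM with vehicle and 0.758, 0.999 and 2.20 CPM with LLY-283, with the highest value in vehicle repeat 3.

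Of 9 genes of latent TGF-β and its binding proteins 7 were tested, 4 were higher and 0 lower, with a median of 0.31. Among all genes tested 12% were higher and 14.1% lower. TGFB2 lay at 9.32, 8.41 and 9.75 CPM with vehicle and 18.8, 17.2 and 16.7 CPM with LLY-283 (log2 0.96 ± 0.09, edgeR adjusted p = 4.05e-09). LTBP3 lay at 61.4, 68.1 and 63.8 CPM with vehicle and 82.7, 88.7 and 91.8 CPM with LLY-283 (log2 0.47 ± 0.05, edgeR adjusted p = 4.81e-08), a latent TGF-β binding protein. TGFB3 lay at 17.1, 16.7 and 16.3 CPM with vehicle and 20.8, 20.1 and 20.3 CPM with LLY-283 (log2 0.31 ± 0.07, edgeR adjusted p = 0.00141). In each the treatment groups did not overlap. TGFB1, at a higher CPM than TGFB2 and TGFB3, went the other way. It lay at 69.8, 71.3 and 72.7 CPM with vehicle and 66.1, 65.6 and 61.9 CPM with LLY-283, without overlap, and was not called. Over both treatments at day 0, TGFB2 lay at 2.52 to 3.44 CPM, LTBP3 at 82.2 to 91.7 CPM, TGFB3 at 14.9 to 17.2 CPM and TGFB1 at 38.6 to 42.6 CPM. For LTBP3 the vehicle libraries of day 5 thus lay below day 0. LRRC32 and NRROS stayed under 1 CPM in every library. The αVβ8 receptor, whose subunit genes ITGAV and ITGB8 were also higher, is a known activator of latent TGF-β, but TGF-β activation was not tested.

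The marker lists of cell types gave the following counts at day 5, where 12% of all genes tested were higher and 14.1% lower. Of 12 glioma and oligodendrocyte precursor markers 11 were tested, 5 were higher, including PDGFRA (log2 0.41 ± 0.04) and PTPRZ1 (0.28 ± 0.04), and 2 were lower, NES (log2 -0.24 ± 0.03) and OLIG2 (-0.13 ± 0.03), both named after their values were seen. The summed level was 9862 to 10220 CPM with vehicle and 10330 to 10570 CPM with LLY-283. Of 18 fibroblast markers 14 were tested, 4 were higher and 0 lower, led by ACTA2 (log2 0.70 ± 0.06), LUM (0.44 ± 0.07) and THY1 (0.22 ± 0.04), and the summed level was 416 to 443 CPM with vehicle and 474 to 484 CPM with LLY-283. The part of these shifts in the integrin results was not tested. Of 12 microglia and leukocyte markers 1 was tested and 0 called (LCP1, log2 0.05 ± 0.24). Of 10 endothelial markers 3 were tested and ESAM was called higher (log2 0.50 ± 0.15, edgeR adjusted p = 0.00907), with PECAM1 at 0.19 ± 0.15 and TIE1 at 0.46 ± 0.43 not called, and 7 of the 10 stayed under 1 CPM in every library. Of 8 platelet markers 1 was tested and 0 called (GP1BB, log2 0.57 ± 0.32), and GP9, PF4, PPBP and TREML1 were at 0 in every library.

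Of the genes not yet named at day 5, ITGAE was at log2 -0.27 ± 0.09 (edgeR adjusted p = 0.0238), ITGB4 at -0.25 ± 0.25 (adjusted p = 0.469) and TNS1 at -0.08 ± 0.04 (adjusted p = 0.148), and none was called. The 10 genes left out by the filter on low counts had at most 21 counts in any library. Shared exons make further counts uncertain. On the same strand ACTN1 shares 300 nt with HMGN1P3 and BCAR1 788 nt with ENSG00000280152, and ITGA1 also shares 571 nt with RPL17P21. On the opposite strand the longest overlap was 2813 nt for ITGA4 (CERKL), 2374 nt for ILK (TAF10), 1769 nt for PXN (PXN-AS1), 1385 nt for ITGA1 (ITGA2-AS1), 1109 nt for VCL (AP3M1), 847 nt for TLN2, 763 nt for ITGA9 (ITGA9-AS1) and 401 nt for ITGB1 (ITGB1-DT). It was 203 nt for ITGAV, 179 nt for TNS1, 174 nt for ITGA6, 132 nt for ITGB8, 119 nt for ITGA7, 82 nt for ZYX, 64 nt for FERMT2 and 48 nt for ITGA5.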

How the data were processed

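HSJD-DIPG-007 spheroids were profiled by directional poly(A) RNA sequencing with paired 41-bp reads. Per the methods and the submitters' processing notes, the authors pseudoaligned reads with kallisto to hg38 transcripts and deposited whole-number estimated counts per gene, 1 column per library; versions, and whether counting used strand, are not given in the sources used here, so antisense and overlapping partners cannot be told apart. Pseudoaligned reads of paralogues can be shared between genes.

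GENCODE v44 named 58207 of 58676 identifiers, all 39 members among them. Members and gene lists were chosen with earlier results of these data known. Members called at day 5 or in a time contrast are described by library; of each list the 3 genes of smallest p at day 5 are named, except 1 gene that is not reported here. Counts went to edgeR 4.0.16 in R 4.3.3 (TMM, filterByExpr, robust quasi-likelihood test, Benjamini-Hochberg over all genes tested, called at adjusted p under 0.01), tested on simulated data. Each comparison was fitted on its own libraries, and standard errors were derived from the fitted F statistic. CPM used TMM factors over all 24 libraries. Repeats of a group differed by more than counting noise. Alternatives were DESeq2 1.42.0, other scalings, filters and thresholds, each library left out, the repeat number as a block, and a shared fit. The day 7 exclusions were chosen after seeing the data. No pairing of libraries by repeat number was seen.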

Additional observations from a re-analysis of the deposited data

Results flagged for a closer look

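For 8 of 32 genes tested the treatment difference at day 5 differed from that at day 0 in a direct test of the interaction (edgeR, adjusted over 18369 genes, 3 libraries per group). A more positive difference was called for 6 (18.8%, against 6.78% of all genes) and a more negative one for 2 (6.25%, against 8.15%). The log2 differences, LLY-283 minus vehicle, were more positive at day 5 for ITGA10 (-0.10 at day 0, 1.49 at day 5, difference 1.59, adjusted p = 1.64e-07), ITGB8 (-0.03 at day 0, 0.59 at day 5, difference 0.62, adjusted p = 9.34e-08), ITGA6 (0.07 at day 0, 0.67 at day 5, difference 0.60, adjusted p = 1.8e-09), ITGA7 (-0.06 at day 0, 0.50 at day 5, difference 0.56, adjusted p = 1.43e-06), ITGA1 (-0.01 at day 0, 0.41 at day 5, difference 0.42, adjusted p = 0.00966) and ITGAV (0.03 at day 0, 0.30 at day 5, difference 0.27, adjusted p = 0.000341). They were more negative at day 5 for ITGA5 (0.03 at day 0, -0.28 at day 5, difference -0.32, adjusted p = 7.45e-05) and ZYX (0.03 at day 0, -0.29 at day 5, difference -0.32, adjusted p = 8.97e-06). Each of the 8 was also called between treatments at day 5 and none was called at day 0. These comparisons use the same libraries as the interaction test and are no independent evidence for it. In the shared fit that includes the day 7 libraries labelled repeat 2, none of the 8 was called (adjusted p between 0.0145 and 0.119). For ITGA1 the call was lost in 16 of its 21 alternatives.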

How the results depend on the processing

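Of 233 counts of called genes recomputed under alternatives, 212 stayed within 1.5 times the reported count and 21 did not. The share of all genes called is given for the reported fits only, not for the alternatives here or above. Counts under alternatives therefore cannot be read as particular to these genes. Of 3876 values of single genes, 3746 kept their side of the threshold, 50 became called, 80 were no longer called and 0 called values turned direction. At day 5, where 8 genes were higher and 4 lower, the lower count was 2 with library size alone, 2 with no filter on low counts, 9 at an adjusted p under 0.05 and 2 to 6 with 1 library left out, and a shared fit of 22 libraries gave 3 higher (ITGA6, ITGAV and ITGB8) and 2 lower (ITGA5 and ZYX). That shared fit gave 5 lower in place of 8 for vehicle at day 5 against day 0, and 0 higher and 0 lower for the difference of day 5 and day 0 effects, in place of 6 and 2. Without both day 7 libraries labelled repeat 2 the shared fit gave 7 higher and 5 lower at day 5, and 5 higher and 4 lower for the difference of effects. For that difference the lower count was 4 with DESeq2 and 5 at an adjusted p under 0.05. For days 1, 2, 3 and 10, no filter on low counts gave 4 higher in place of 0. The time course called 2 genes with no filter, 7 without both day 7 libraries labelled repeat 2 and 0 to 4 with 1 library left out, in place of 0. The cause of these moves was not tested. Leaving out a day 7 library left 1 library in its group, and the spread for it was then taken from the remaining groups.

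With the repeat number as a block, 8 genes were higher and 3 lower at day 5, 5 and 2 for the difference of effects, 10 and 8 for vehicle over time, 12 and 8 for LLY-283 over time, and 0 at day 0, at day 7 and in the time course. The share of all genes called in these blocked fits is not given here either. For libraries with the same number, deviations from the group means were correlated between treatments. The correlations were from -0.05 to 0.006 at days 0 and 5 and -0.076 at day 7. Within a treatment between day 0 and day 5 they were from -0.039 to 0.053. With 2 libraries per group the deviations mirror each other, so the day 7 value cannot show whether the numbers pair libraries. In groups of 3 the deviations also constrain each other. The joint fit of days 1, 2, 3 and 10 has 1 library per group and no block. At 13835205 counts or more per library, genes under 2 CPM had at most 37 counts, so small differences in them were not detectable at this depth.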
